A study of Homo sapiens with 6 samples.

Results

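The heat shock proteins and J-domain cochaperones described here were 71 of the 35268 named genes whose expression was measured in Rh30 cells, a long-established line from a fusion-positive rhabdomyosarcoma, a childhood cancer with features of skeletal muscle. They were chosen by gene symbol, in a rule that uses no measured value but was written with earlier results of these data known: the HSP90 genes (3), the HSPA or HSP70 genes (14), HSPH1 (1), the chaperonin genes HSPD1 and HSPE1 (2), the HSPB or small heat shock protein genes (8), and the J-domain genes of class A (4), class B (13) and class C (26). Of the 71 genes, 61 had a mean of at least 10 normalized counts over all libraries and were tested, and 10 did not. Poly(A) RNA was sequenced from 3 libraries of Rh30 cells that had received YK-4-279 at 1 µM, dissolved in DMSO, over 24 hours and from 3 libraries given the vehicle DMSO alone for the same time. YK-4-279 is a small molecule that was developed against the fusion protein EWS-FLI1 and was later used against other ETS transcription factors, and the comparison asked how gene expression in fusion-positive rhabdomyosarcoma cells differed after drug treatment. Both groups carried the PAX3-FOXO1 fusion of the line and were grown in RPMI medium with serum, and all 6 libraries came from this 1 line. No source used here states that the 3 libraries of a group came from separate cultures, so p-values measure the spread between these libraries, which may be technical.

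Molecular chaperones bind unfolded or partly folded proteins and help them to fold, refold or be degraded. HSP70 proteins are ATPases that grip short exposed stretches of a client, J-domain proteins deliver the client and stimulate ATP hydrolysis by HSP70, and nucleotide exchange factors, including the HSP110 proteins, release the client again. HSP90 proteins act later on kinases, steroid receptors and other nearly folded clients, small heat shock proteins hold unfolding proteins without using ATP, and the HSPD1 and HSPE1 proteins form the folding chamber of mitochondria. In heat or proteotoxic stress the transcription factor HSF1 binds heat shock elements, which are inverted repeats of a short GAA unit, and raises many of these genes together. Unfolded protein in the endoplasmic reticulum acts on another branch, through elements in the promoters of genes such as HSPA5. Skeletal muscle and muscle-derived cells carry a further set of small heat shock proteins.

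Promoter sequences of 5 genes are shown as examples for the motif counts below. HSP90AA1 and HSPA8 are abundant genes with a full heat shock element. HSPB1 is the member that rose and HSPB11 the member that fell in the results below. HSPA5 is the main target of the endoplasmic reticulum branch. Whether a motif bears on the change of any gene was not tested. Each sequence is the stretch of 250 bases before an annotated start, written 5′ to 3′ on the strand of the gene, from RefSeq on build GRCh38.p14. For genes with a marked motif, only windows that held the motif were considered. Among several windows, the start nearest the annotated gene start was taken. Capitals mark a match to a motif on either strand, namely the heat shock element of 3 units (GAANNTTCNNGAA) in HSP90AA1 and HSPA8, its core of 2 facing units (GAANNTTC) in HSPB1, and the ER stress element (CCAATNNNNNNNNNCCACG) in HSPA5. HSPB11 held none of these motifs and has no capitals. The 2-unit core lies within the 3-unit element, so every gene with the longer motif also holds the shorter one.
HSP90AA1 (chr14:102087045-102087294, minus strand): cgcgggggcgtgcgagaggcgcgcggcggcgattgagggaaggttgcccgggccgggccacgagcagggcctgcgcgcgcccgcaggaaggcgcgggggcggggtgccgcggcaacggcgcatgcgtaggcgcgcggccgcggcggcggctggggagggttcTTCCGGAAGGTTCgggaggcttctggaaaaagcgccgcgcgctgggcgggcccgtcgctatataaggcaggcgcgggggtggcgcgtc
HSPA8 (chr11:123062137-123062386, minus strand): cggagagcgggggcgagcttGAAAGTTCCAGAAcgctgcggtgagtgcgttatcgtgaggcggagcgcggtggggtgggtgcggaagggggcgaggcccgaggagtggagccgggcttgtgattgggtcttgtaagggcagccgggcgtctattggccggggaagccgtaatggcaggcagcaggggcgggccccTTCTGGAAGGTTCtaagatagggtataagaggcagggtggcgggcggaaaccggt
HSPB1 (chr7:76302423-76302672, plus strand): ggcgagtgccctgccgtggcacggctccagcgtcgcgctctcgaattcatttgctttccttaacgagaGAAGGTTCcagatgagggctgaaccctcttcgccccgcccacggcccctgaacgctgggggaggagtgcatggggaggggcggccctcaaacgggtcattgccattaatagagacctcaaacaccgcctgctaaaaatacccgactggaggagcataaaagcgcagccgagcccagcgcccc
HSPB11 (chr1:53945700-53945949, minus strand): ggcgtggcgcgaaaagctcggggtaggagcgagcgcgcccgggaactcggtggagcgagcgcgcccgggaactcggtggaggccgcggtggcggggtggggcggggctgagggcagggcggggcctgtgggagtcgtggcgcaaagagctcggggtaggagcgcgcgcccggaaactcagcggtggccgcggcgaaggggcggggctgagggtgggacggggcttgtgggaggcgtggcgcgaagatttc
HSPA5 (chr9:125241344-125241593, minus strand): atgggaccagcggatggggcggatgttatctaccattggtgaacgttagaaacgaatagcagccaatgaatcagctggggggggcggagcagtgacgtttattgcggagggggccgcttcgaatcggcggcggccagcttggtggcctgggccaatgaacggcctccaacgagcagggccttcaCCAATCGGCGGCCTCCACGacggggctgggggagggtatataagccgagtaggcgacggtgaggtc

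RefSeq windows from 250 bases before to 50 bases after the start were at hand for 64 of the 71 genes, as 84 windows among 35116 for all genes. The 3-unit heat shock element was found in 7 of these genes (DNAJA1, DNAJB6, HSP90AA1, HSP90AB1, HSPA6, HSPA8 and HSPD1) and in 0.49% of all windows. The 2-unit core was found in 17 genes and in 6.77% of all windows. The ER stress element was found in HSPA5 and HSP90B1 and in 0.0769% of all windows. A match is a description of the letters in the window and not evidence of binding.

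The libraries held between 16724650 and 24677433 reads on named genes. DMSO replicate 1 stood apart, with a mean correlation across genes of 0.989 to the other libraries (no other library was under 0.992) and with 6.05% of its reads on mitochondrial genes, against 4.74% to 5.03%. The cells carried the markers of their line, with MYOD1 between 34516 and 39146 normalized counts in every library. Of 9 markers of the line, 0 passed with all libraries, the groups did not overlap in 3, or 33.3%, against 26.0% of all genes, and without DMSO replicate 1 FOXO1, FGFR4 and CDH15 passed as lower with YK-4-279, or 33.3%, against 13.1% of all genes. Of the markers of other cell types, KRT5 was listed at 0 in all libraries and PTPRC and CD3E each held 1 read in 1 library. EPCAM, PECAM1, CDH5 and VWF were each at 88.3 normalized counts or fewer. Calls that changed without DMSO replicate 1 are given below with and without it. Leaving it out moved the log2 fold change of 44 of the 61 members tested by over 1.5 times or across 0, or 72.1%, against 62.1% of all genes, and 0 of these 44 were called with all libraries.

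After 24 hours of YK-4-279, 2 of the 61 members tested passed an adjusted p-value of 0.05. The small heat shock protein gene HSPB1 rose by 21.0%, and HSPB11, whose product is a subunit of the intraflagellar transport machinery, fell by 28.7%. The share of members called was 3.28%, against 3.41% of the 13930 genes tested (1.26% higher and 2.15% lower), so that the members were called about as often as genes in general. By edgeR on the recovered reads the same 2 members passed, against 3.34% of all genes, and by DESeq2 3 members passed, DNAJB2 being added, against 4.56%. In limma the other members tested, among them all HSP90, HSP70, chaperonin and J-domain genes with enough reads, missed the threshold. The test was limma on log2(normalized count + 1), two-sided, with Benjamini-Hochberg adjustment over the 13930 genes, and log2 fold changes on this scale understate the change of genes with few reads.

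The members lay on both sides of 0. There were 31 with a higher and 30 with a lower mean log2 value with YK-4-279, and their median log2 fold change was 0.0051, against -0.0075 over all genes tested, and without DMSO replicate 1 these medians were 0.013 and -0.012. Before adjustment, 11 members had a p-value under 0.05, which was 18.0% of them, against 18.7% of all genes. In 10 members all YK-4-279 libraries lay above all DMSO libraries, against a share of 10.9% of all genes, and in 4 members all lay below, against 15.1%. The 95% confidence interval of the log2 fold change lay within 0.5 of 0 in 49 members, or 80.3%, against 72.4% of all genes. The others were HSPB11, DNAJB2 and the less abundant HSPA1A, HSPA2, HSPA4L, HSPA6, HSPA12A, HSPA12B, HSPB8, DNAJA4, DNAJC4 and DNAJC28.

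**Figure D1:**
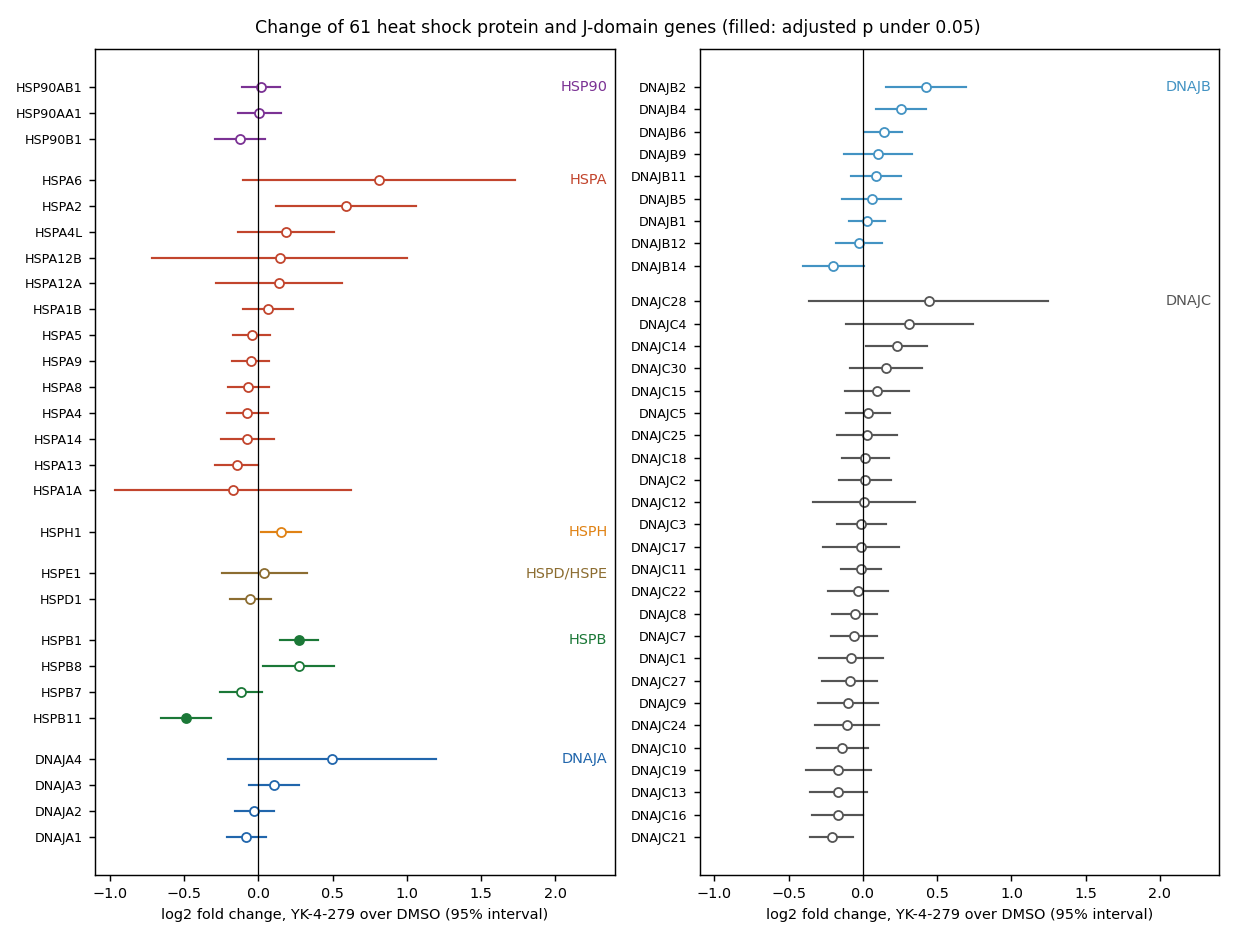
Log2 fold change of each of the 61 members tested, YK-4-279 over DMSO, on the horizontal axis, with one line per member grouped by family; points are estimates from 3 libraries per group, bars are 95% confidence intervals, and filled points have an adjusted p-value under 0.05. The filled points are HSPB1 at 0.28 and HSPB11 at -0.49, and the widest intervals belong to genes with few reads, such as HSPA6 at 0.81.

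The number of members called depended on single libraries. Without DMSO replicate 1, 9 members passed the threshold, against 13.1% of all genes. They were HSPB1, HSPH1, DNAJB2, DNAJB4 and DNAJB6, which were higher, and HSPB11, HSPB7, DNAJC9 and DNAJC21, which were lower. Without YK-4-279 replicate 1, 2 or 3, the number was 0 each time, and of all genes 0.136%, 0.165% and 0.33% passed. Without DMSO replicate 2 it was 3, against 4.85% of all genes, and without DMSO replicate 3 it was 1, HSPB11, against 1.74%. When the smooth dependence of every library on transcript length and GC content was removed, an alternative chosen after the data were seen, 6 members passed (HSPB11, HSPB7, HSPH1, DNAJB2, DNAJB4 and DNAJC21), against 13.6% of all genes. With the replicate number as a block, 1 passed (HSPB11), against 1.29% of all genes.

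HSPB1 encodes HSP27, a small heat shock protein that holds unfolding proteins and binds actin filaments. The gene lies on build hg38 at chromosome 7, 76302673 to 76304295, and had 4772, 5278 and 5016 normalized counts in DMSO replicates 1 to 3 and 6082, 6343 and 5805 in YK-4-279 replicates 1 to 3. Every YK-4-279 library was above every DMSO library, and DMSO replicate 1 was the lowest library. The means were 5022 ± 253 with DMSO and 6077 ± 269 with YK-4-279 (SD, n = 3 each), which is 0.28 ± 0.06 as log2 fold change and its standard error (95% interval 0.15 to 0.40, limma adjusted p = 0.0247). It was 0.24 without DMSO replicate 1 (limma adjusted p = 3.22e-05). With the GC and length trend removed it was 0.16 and no longer passed (limma adjusted p = 0.0767). Of the 100-base windows of its transcript, 6.05% also occur in the transcript of a pseudogene, HSPB1P1.

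HSPB11, now named IFT25, carries a heat shock protein symbol but is known for its place in the complex that moves cargo along cilia. The gene lies on hg38 at chromosome 1, 53916574 to 53945699. It had 817, 715 and 731 normalized counts in DMSO replicates 1 to 3 and 548, 528 and 534 in YK-4-279 replicates 1 to 3. The groups did not overlap, and the lowest DMSO library was above the highest YK-4-279 library. DMSO replicate 1 was the highest library. The means were 755 ± 54.6 with DMSO and 537 ± 9.93 with YK-4-279 (SD, n = 3 each), which is -0.49 ± 0.079 as log2 fold change and its standard error (95% interval -0.66 to -0.32, limma adjusted p = 0.00724). It was -0.43 without DMSO replicate 1. IFT27, its binding partner in that complex and no member, was named after its values were seen and had means of 78.8 ± 8.04 with DMSO and 75.4 ± 9.05 with YK-4-279, a log2 fold change of -0.066 (limma adjusted p = 0.865).

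The muscle-enriched small heat shock proteins were HSPB2, HSPB3, HSPB6, HSPB7 and HSPB8, of which 2 had enough reads to be tested and 0 passed. HSPB7, a protein of heart and skeletal muscle that binds filamin, was the most abundant of them, with 3694, 4169 and 3941 normalized counts in DMSO replicates 1 to 3 and 3633, 3827 and 3414 in YK-4-279 replicates 1 to 3. YK-4-279 replicate 2 reached into the range of the DMSO libraries. Its log2 fold change was -0.12 (limma adjusted p = 0.352). Without DMSO replicate 1 it was -0.16 and passed (limma adjusted p = 0.00792), as it did with the GC and length trend removed, at -0.21 (limma adjusted p = 0.00808).

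HSPB8, which works with the cochaperone BAG3 in the removal of damaged muscle proteins, had 153, 145 and 154 with DMSO and 175, 187 and 184 with YK-4-279. All 3 YK-4-279 libraries lay above all 3 DMSO libraries, and the log2 fold change of 0.27 did not pass after adjustment (limma adjusted p = 0.21). HSPB3 had 5.04, 8.99 and 10.9 with DMSO and 15.4, 14.1 and 5.0 with YK-4-279, and HSPB6 had 7.57, 6.0 and 6.68 with DMSO and 10.3, 2.17 and 9.0 with YK-4-279, with overlapping groups in both. HSPB2 was listed at 0 in every library, and 83.6% of its transcript windows are shared with a readthrough gene, so its value is uncertain. HSPB9 was also below the minimum for testing.

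**Figure D2:**
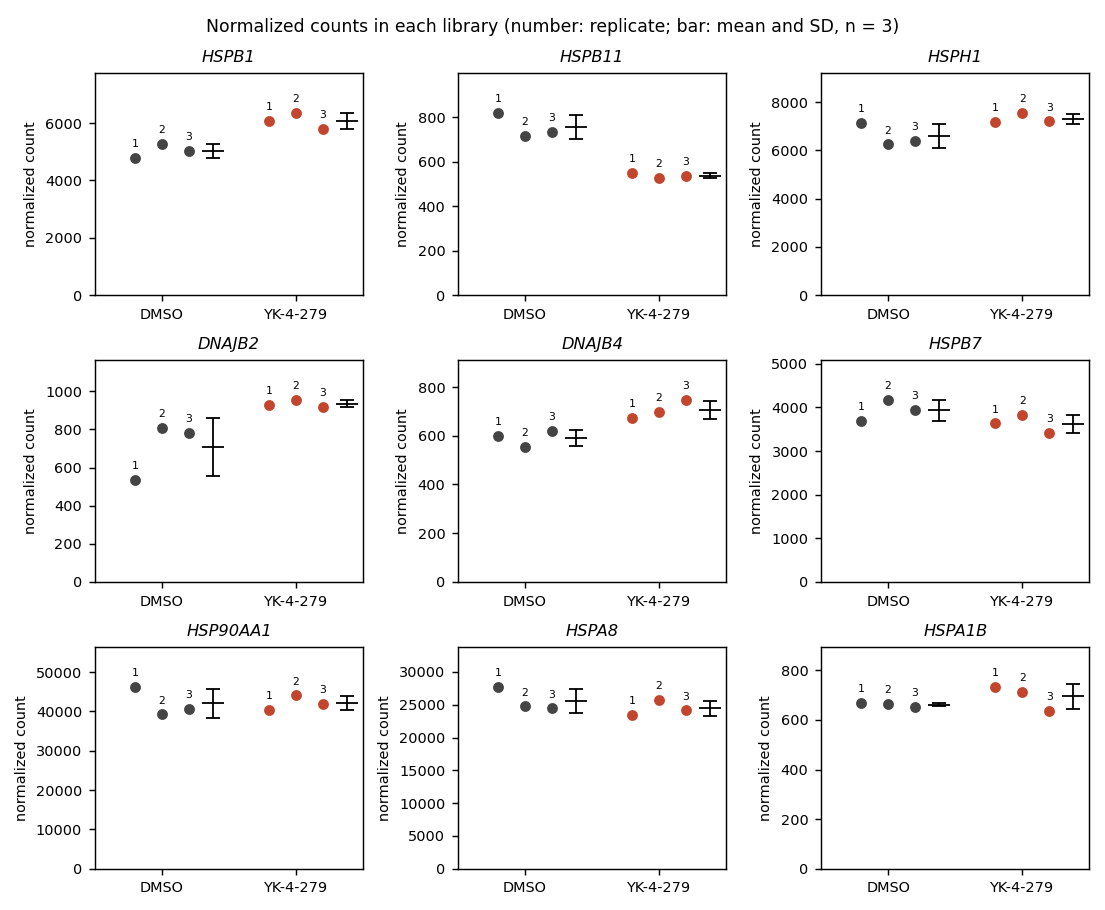
Normalized counts of 9 members in each library on linear axes that start at 0, with DMSO in grey and YK-4-279 in red; numbers mark the replicate, and the bar beside the points gives the mean and SD of 3 libraries. The groups do not overlap for HSPB1, HSPB11, HSPH1, DNAJB2 and DNAJB4. DMSO replicate 1 lies apart from replicates 2 and 3 for HSPB11, HSPH1, DNAJB2, HSP90AA1 and HSPA8.

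The HSP90 genes were among the most abundant of all genes. Per kilobase of transcript, HSP90AB1 had a mean of 15214 normalized counts over the 6 libraries and HSP90AA1 13038, which ranked 67 and 76 among 13759 genes with a known transcript length. HSP90AA1 encodes the stress-inducible cytosolic form and HSP90AB1 the constitutive one. HSP90AA1 had 46215, 39256 and 40668 normalized counts in DMSO replicates 1 to 3 and 40380.4, 44074 and 41920.1 in YK-4-279 replicates 1 to 3. The groups overlapped, and DMSO replicate 1 was the highest of the libraries. The log2 fold change was 0.0053, with a 95% interval of -0.14 to 0.15.

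For HSP90AB1 the libraries had 40819, 37778 and 37320.3 with DMSO and 38001, 40904 and 38413 with YK-4-279, and the log2 fold change was 0.018 (95% interval -0.11 to 0.14). Both intervals lay within 0.5 of 0. HSP90B1, the form of the endoplasmic reticulum also called GRP94, had 12401, 9938 and 9902 with DMSO and 9412, 10198 and 9808 with YK-4-279. Its log2 fold change of -0.12 (limma adjusted p = 0.424) was -0.017 without DMSO replicate 1, which was the highest library.

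The HSPA family held no called gene among the 13 tested, of which 6 were higher and 7 lower, and the median log2 fold change was -0.043, or -0.0018 without DMSO replicate 1. HSPA8, the constitutive cytosolic HSP70 called HSC70, was its most abundant member at 11052 normalized counts per kilobase. HSPA8 had 27700.5, 24726 and 24425 normalized counts in DMSO replicates 1 to 3 and 23442, 25700.4 and 24131 in YK-4-279 replicates 1 to 3. The ranges overlapped, with a log2 fold change of -0.067 (95% interval -0.20 to 0.068) that was 0.0038 under quantile normalization. HSPA9, the mitochondrial HSP70 or mortalin, had a log2 fold change of -0.051 (95% interval -0.18 to 0.074). With DMSO replicate 1 left out, the values were -0.0099 for HSPA8 and -0.0071 for HSPA9.

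The stress-inducible HSP70 is encoded by HSPA1A and HSPA1B, a pair of neighbouring genes with nearly identical transcripts. HSPA1B had 667, 665 and 653 normalized counts in DMSO replicates 1 to 3 and 733, 714 and 636 in YK-4-279 replicates 1 to 3. HSPA1A had 13.9, 14.0 and 18.4 with DMSO and 19.7, 15.2 and 8.0 with YK-4-279. Both sets overlapped, with log2 fold changes of 0.067 (95% interval -0.10 to 0.24) for HSPA1B and -0.17 (95% interval -0.97 to 0.62) for HSPA1A. The split between these genes is uncertain, because 72.4% of the windows of HSPA1A and 72.8% of those of HSPA1B occur in another gene's transcripts, mainly those of the other gene of the pair.

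HSPA6, a form that human cells make almost solely under strong stress, had 10.1, 4.0 and 10.9 with DMSO and 11.1, 15.2 and 17.0 with YK-4-279. Every YK-4-279 library was above every DMSO library, with DMSO replicate 3 and YK-4-279 replicate 1 almost level. The log2 fold change of 0.81 had a 95% interval of -0.10 to 1.73 and did not pass (limma adjusted p = 0.326). A share of 27.8% of its windows occur in HSPA7, so its few reads are uncertain as well. HSPA2, known from the testis, was low too, with 39.1, 28.0 and 40.9 with DMSO and 48.8, 64.1 and 50.03 with YK-4-279. Its groups did not overlap, and its log2 fold change was 0.59 (limma adjusted p = 0.167).

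HSPA13, an HSP70-like protein of microsomes, had the largest difference downward among family members with a mean of at least 100, with 3455, 2956 and 3088 with DMSO and 2795, 2996 and 2778 with YK-4-279. The log2 fold change was -0.15 (limma adjusted p = 0.268) and -0.082 without DMSO replicate 1. HSPA4 and HSPA4L belong to the HSP110 group of exchange factors and had log2 fold changes of -0.075 and 0.19 (adjusted p = 0.572 and 0.546 in limma), which were -0.0076 and 0.28 without DMSO replicate 1. Leaving out 1 library at a time, HSPA4L ranged from 0.0097 to 0.28. HSPA14, HSPA12A and HSPA12B had values of -0.076, 0.14 and 0.14 on the same scale with all libraries, and HSPA1L was too low to test.

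HSPH1, the stress-inducible HSP110, had 7151, 6244 and 6379.8 normalized counts in DMSO replicates 1 to 3 and 7181, 7541 and 7203 in YK-4-279 replicates 1 to 3. All YK-4-279 libraries lay above all DMSO libraries, with DMSO replicate 1 only just below YK-4-279 replicate 1. The means were 6592 ± 489 with DMSO and 7308 ± 202 with YK-4-279 (SD, n = 3 each), which is 0.15 ± 0.062 as log2 fold change and its standard error (adjusted p = 0.21 in limma). Without DMSO replicate 1 it was 0.21 and passed (limma adjusted p = 0.000108), and with the GC and length trend removed it was 0.21 (limma adjusted p = 0.00122).

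HSPD1 and HSPE1 encode the chamber and the lid of the mitochondrial chaperonin. HSPD1 had 21507, 18598 and 18963 with DMSO and 18138, 19643 and 18987 with YK-4-279, with a log2 fold change of -0.055 (95% interval -0.19 to 0.083) that was 0.029 under quantile normalization and 0.010 without DMSO replicate 1. HSPE1 was counted at only 223 ± 30.4 with DMSO and 230.1 ± 32.9 with YK-4-279, with a log2 fold change of 0.04 (95% interval -0.25 to 0.33). Its level is uncertain, because 31.7% of its windows occur in a readthrough gene or in pseudogenes, of which 26 carry its name. The other mitochondrial members were HSPA9, DNAJA3, DNAJC11, DNAJC15, DNAJC19, DNAJC28 and DNAJC30, and of all 9 none passed, with 5 higher, 4 lower and a median log2 fold change of 0.040, or 0.018 without DMSO replicate 1.

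The class A J-domain proteins are the closest relatives of bacterial DnaJ. All 4 were tested and none passed. DNAJA1, a farnesylated cytosolic partner of HSC70, was the most abundant, with 6975, 6105 and 6369 with DMSO and 5922, 6401 and 6054 with YK-4-279, and its log2 fold change was -0.08 (limma adjusted p = 0.521), or -0.026 without DMSO replicate 1. DNAJA3, the mitochondrial form, had the largest value upward among those with a mean of at least 100, at 0.11 (0.018 without DMSO replicate 1). DNAJA2 and DNAJA4 had values of -0.028 and 0.49, the latter at a mean of 14.4 ± 3.09 with DMSO and 20.9 ± 5.91 with YK-4-279 normalized counts.

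Among the class B genes, 9 of 13 were tested, 7 were higher and 2 lower, and none passed. DNAJB1, or HSP40, the main heat-inducible J-domain protein, was the most abundant, with 4479.9, 4652 and 4489 normalized counts in DMSO replicates 1 to 3 and 4655, 4821 and 4413 in YK-4-279 replicates 1 to 3. The groups overlapped, and the log2 fold change was 0.028 with a 95% interval of -0.094 to 0.15. DNAJB2, which directs ubiquitinated clients to the proteasome, had the largest value in this class with all libraries. It had 535, 806 and 782 normalized counts in DMSO replicates 1 to 3 and 929, 954 and 920.5 in YK-4-279 replicates 1 to 3. The YK-4-279 libraries lay close together above the DMSO libraries, and DMSO replicate 1 was far below replicates 2 and 3. Its log2 fold change was 0.42 (standard error 0.12, limma adjusted p = 0.0795), and 0.23 without DMSO replicate 1 (limma adjusted p = 0.0038). It passed in the latter case as well as with DESeq2, without DMSO replicate 2 and with the GC and length trend removed. The value of DNAJB4 was larger without DMSO replicate 1, at 0.27. With the GC and length trend removed it was 0.35, against 0.34 for DNAJB2.

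DNAJB4, a heat-inducible relative of DNAJB1, had 598, 554 and 619 normalized counts in DMSO replicates 1 to 3 and 672, 697 and 746 in YK-4-279 replicates 1 to 3. The groups did not overlap, and the log2 fold change was 0.26 (limma adjusted p = 0.0949). For this gene the value hardly depended on DMSO replicate 1, being 0.27 without it (limma adjusted p = 0.00501), and it was 0.35 with the GC and length trend removed (limma adjusted p = 0.00244). DNAJB6, which suppresses protein aggregation and is mutated in a muscular dystrophy, had 2473, 2606 and 2447 with DMSO and 2809.7, 2774 and 2711 with YK-4-279, a log2 fold change of 0.14 (limma adjusted p = 0.21) that passed without DMSO replicate 1 at 0.13 (limma adjusted p = 0.0408) but was 0.071 with the GC and length trend removed (limma adjusted p = 0.316). DNAJB14, a J-domain protein of the endoplasmic reticulum membrane, had the largest value downward, -0.20 (limma adjusted p = 0.277), and -0.086 without DMSO replicate 1. DNAJB3 and DNAJB8 were listed at 0 in every library, and DNAJB7 and DNAJB13 were below the minimum for testing.

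Class C holds J-domain proteins with varied further domains and tasks. Of 26 genes, 25 were tested, 10 were higher and 15 lower, and none passed, with a median log2 fold change of -0.014, or -0.035 without DMSO replicate 1. DNAJC5, the cysteine string protein of exocytosis, was the most abundant, with 5059.9, 5906 and 5966 with DMSO and 5896, 5882 and 5513 with YK-4-279, and its log2 fold change was 0.034 (95% interval -0.11 to 0.18). DNAJC14, which acts in the export of receptors from the endoplasmic reticulum, had the largest value upward among those with a mean of at least 100, with 298, 339.7 and 362 with DMSO and 391, 380.3 and 394 with YK-4-279. Its groups did not overlap, its log2 fold change was 0.23 (limma adjusted p = 0.224), and 27.7% of its windows are shared with a readthrough transcript. Without DMSO replicate 1 it was 0.15, below DNAJC15 at 0.19.

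DNAJC21, a factor in the maturation of the large ribosomal subunit, had the largest value downward in class C, with 2046, 1791 and 1821 normalized counts in DMSO replicates 1 to 3 and 1605, 1664 and 1618 in YK-4-279 replicates 1 to 3. Every YK-4-279 library lay below every DMSO library, and DMSO replicate 1 was the highest. The log2 fold change was -0.21 (limma adjusted p = 0.109), and -0.15 without DMSO replicate 1 (limma adjusted p = 0.0296). DNAJC9, a cochaperone of histones, had 638, 788 and 787 with DMSO and 652, 741 and 663 with YK-4-279, with a log2 fold change of -0.10 that passed without DMSO replicate 1 at -0.20 (limma adjusted p = 0.0306) but not with the GC and length trend removed, at -0.082 (limma adjusted p = 0.602). DNAJC16 and DNAJC19 also had YK-4-279 libraries that all lay below the DMSO libraries, and DNAJC30 had all above, with log2 fold changes of -0.17, -0.17 and 0.16, which were -0.099, -0.082 and 0.060 without DMSO replicate 1. DNAJC6, the neuronal auxilin, was too low to test.

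**Figure D3:**
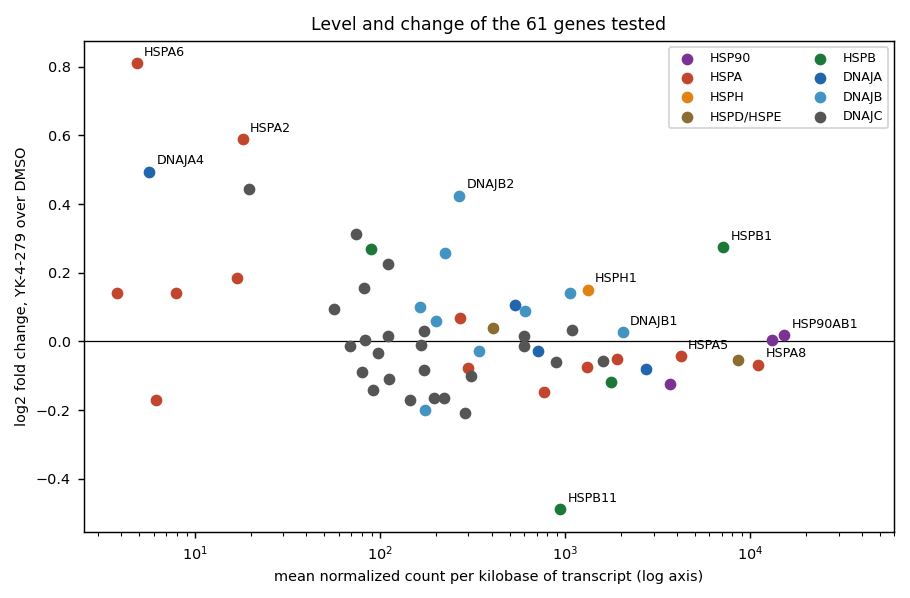
Log2 fold change of the 61 members tested (vertical axis, YK-4-279 over DMSO) against the mean normalized count per kilobase of transcript over the 6 libraries (horizontal axis, log scale), with one point per member coloured by family. Members above 0.4 were low ones such as HSPA6, HSPA2 and DNAJA4, apart from DNAJB2, while HSPB1 at 0.28 and HSPB11 at -0.49 lie apart from other members of like level.

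The members were also grouped by the branch of the stress response to which they belong. A list of 14 members linked to the heat shock response held HSPA1A, HSPA1B, HSPA6, HSPA8, HSPA4L, HSP90AA1, HSP90AB1, HSPH1, HSPB1, HSPD1, HSPE1, DNAJA1, DNAJB1 and DNAJB4, of which HSPA8 and HSP90AB1 are made constitutively as well. All 14 were tested, 10 were higher and 4 lower, and 1 passed, HSPB1. The median log2 fold change of the 14 was 0.034, or 0.066 without DMSO replicate 1. The call of HSPB1 is a share of 7.14% on so few genes, against 3.41% of all genes. In 4 of them (HSPA6, HSPB1, HSPH1 and DNAJB4), or 28.6%, all YK-4-279 libraries lay above all DMSO libraries, against 10.9% of all genes. In 0 of them all lay below, against 15.1%. Both directions together made up 26.0% of all genes. The list is short, and HSPA6 and HSPH1 were separated only narrowly. Without DMSO replicate 1 the number called was 3 (HSPB1, HSPH1 and DNAJB4), or 21.4%, against 13.1% of all genes. The summed level of the 14 genes was 161319, 144198 and 145370.3 normalized counts in DMSO replicates 1 to 3 and 145633, 157311 and 148755 in YK-4-279 replicates 1 to 3, so the groups overlapped and the sum was highest in DMSO replicate 1. HSPA8 and HSP90AB1 together made up 42.0% to 43.3% of this sum.

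The 7 genes whose promoter window held the 3-unit heat shock element had log2 fold changes from -0.080 (DNAJA1) to 0.81 (HSPA6), with a median of 0.0053, and 0 of them passed the limma threshold, 1 of them (DNAJB6) having a p-value under 0.05 before adjustment, against 18.7% of all genes. In edgeR none of the 7 passed, and in DESeq2 none of 6 passed, HSPA6 being given no adjusted p there. Of the 13 tested genes with the 2-unit core, 9 were higher, 4 were lower and 1 passed, against 3.41% of all genes. This was HSPB1, whose core shown above begins at position -182 relative to the start. DNAJA1, DNAJA4, DNAJB1 and HSPB8 were among the genes with the 2-unit core and did not pass.

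A list of 8 members of the endoplasmic reticulum was tested in full, and 2 were higher, 6 were lower and none passed. The median log2 fold change was -0.063. The list was not complete for this compartment and left out DNAJB14 (-0.20) and DNAJC14 (0.23), described above. HSPA5, or BiP, the HSP70 of this compartment, had 17766, 16462 and 16135 normalized counts in DMSO replicates 1 to 3 and 16006, 17018 and 15831 in YK-4-279 replicates 1 to 3. The ranges overlapped, and the log2 fold change was -0.043 (95% interval -0.17 to 0.081), or 0.0039 under quantile normalization. The J-domain partners of BiP had log2 fold changes of 0.10 for DNAJB9 (ERdj4), 0.087 for DNAJB11 (ERdj3), -0.083 for DNAJC1 (ERdj1), -0.011 for DNAJC3 (an inhibitor of the kinase PERK) and -0.14 for DNAJC10 (ERdj5, a disulfide reductase), with limma adjusted p-values of 0.656, 0.584, 0.692, 0.962 and 0.367. The value of DNAJC3 changed sign under TMM scaling, to 0.0076. Leaving out 1 library at a time gave 0.019 to 0.19 for DNAJB9, 0.025 to 0.13 for DNAJB11 and -0.17 to -0.013 for DNAJC1. Both genes with the ER stress element, HSPA5 and HSP90B1, were below 0 with intervals that held 0. With DMSO replicate 1 left out, the value of DNAJC10 was -0.045 and the median of the 8 genes was -0.0096.

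Other genes of the same pathways were listed by function. None of the 5 tested heat shock factors and regulators passed, and the most abundant, HSBP1, which binds the trimer of HSF1, had means of 1969 ± 48.9 with DMSO and 1833 ± 65.2 with YK-4-279, a log2 fold change of -0.10 (limma adjusted p = 0.383). HSF1 itself, named after its values were seen, had 1509, 1639 and 1558 with DMSO and 1651, 1529 and 1505 with YK-4-279, a log2 fold change of -0.0069 (95% interval -0.15 to 0.14). None of the 14 HSP70 exchange factors and cochaperones passed. STIP1, or HOP, which links HSP70 to HSP90, was the most abundant at a log2 fold change of 0.037 (limma adjusted p = 0.758). BAG3, the heat-inducible exchange factor that works with HSPB8, was named after its values were seen and had 896, 1006 and 955 with DMSO and 1114, 1237 and 1126 with YK-4-279. Its groups did not overlap, its log2 fold change was 0.28 (limma adjusted p = 0.0539), and without DMSO replicate 1 it passed at 0.24 (limma adjusted p = 0.00208).

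None of the 14 tested HSP90 cochaperones passed, with 8 higher and 6 lower. In 5 of them, or 35.7%, the groups did not overlap, against 26.0% of all genes. Without DMSO replicate 1 only the phosphatase gene PPP5C passed, at -0.18 (limma adjusted p = 0.00362), or 7.14% of the list, against 13.1% of all genes. PTGES3, or p23, their most abundant gene, had a log2 fold change of -0.11 (limma adjusted p = 0.294). The 14 genes of the CCT chaperonin and of prefoldin, which fold actin and tubulin, included none that passed, 5 higher and 9 lower, and CCT7, the most abundant, was at 0.011 (95% interval -0.11 to 0.13). Among 16 genes of folding and stress signalling in the endoplasmic reticulum, 8 were higher, 8 were lower and 1 passed, or 6.25%, against 3.41% of all genes. This was DDIT3, the transcription factor CHOP of the stress response, with 414, 432 and 418 with DMSO and 554, 531 and 513 with YK-4-279, which is 0.34 ± 0.08 as log2 fold change and its standard error (limma adjusted p = 0.036). Leaving out 1 library at a time, the adjusted p of DDIT3 in limma ranged from 0.00168 to 0.224. Without DMSO replicate 1, 4 of the 16 passed, or 25.0%, against 13.1% of all genes. DDIT3 and HERPUD1, at 0.33 and 0.19, were higher there, and the folding genes PDIA4 and CALR, at -0.15 and -0.16, were lower. With all libraries, 2 of the 16 genes had every YK-4-279 library above and 5 had every one below the DMSO libraries, against 10.9% and 15.1% of all genes. The J-domain genes SEC63, GAK and HSCB, which have other symbols, did not pass. CRYAB, a small heat shock protein of muscle outside the symbol rule, had 50.4, 56.0 and 47.6 with DMSO and 50.6, 45.6 and 60.03 with YK-4-279, with a log2 fold change of 0.015, and CRYAA was listed at 0.

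DMSO replicate 1 was the highest of the 6 libraries for 26 of the 61 members, or 42.6%, and the lowest for 14, or 23.0%, against 33.7% and 28.8% of all genes. The 26 genes had a median GC content of 41.2% in their longest transcript and the 14 genes 54.2%. HSP90AA1, HSPA8, HSPD1 and HSP90B1 were among those highest there, and DNAJB2, DNAJA3 and DNAJC5 among those lowest there. Both called members were among them as well. HSPB11 was highest there, at 33.6% relative to the mean of the other 5 libraries. HSPB1 was lowest there, at -16.3% on the same measure, with a GC content of 64.3%. The part of GC content in these values was not tested, beyond the fits with the GC and length trend removed given above. The members together took between 1.11% and 1.203% of the normalized counts of a library.

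**Figure D4:**
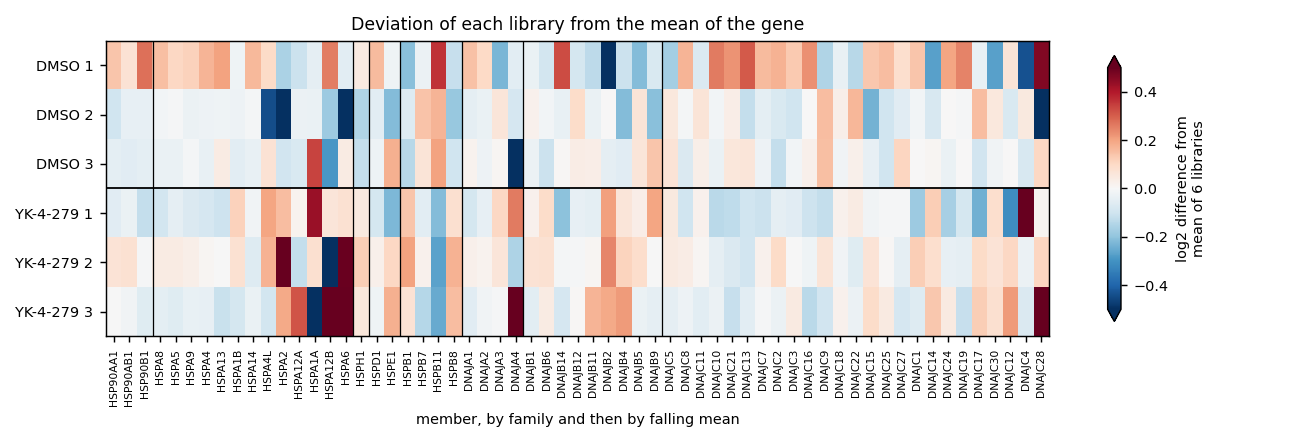
Deviation of each member's log2(normalized count + 1) from its mean over the 6 libraries, with one row per library and one column per member, ordered by family and by falling mean; red is above and blue below the mean, with colours saturated at 0.5 on the log2 scale. DMSO replicate 1 stands out as a row, being the highest library for 26 members and the lowest for 14.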

How the data were processed

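Poly(A) mRNA of Rh30 cells was sequenced as paired 150-base reads in 3 DMSO and 3 YK-4-279 libraries. Per the labels and methods, the authors removed adapters and poor bases with BBDuk and used STAR 2.7.9a for alignment to hg38 and for counts per gene. The annotation is not given in the sources used here. They deposited a normalized count (signal) per gene, which is the read count over a library size factor, and name DESeq2 1.44.0. All values gave whole reads (100%, within 0.001 of a read). The 1 unnamed row, with at most 6 reads, was left out.

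Genes with a mean of at least 10 were compared on log2(normalized count + 1) in R 4.3.3 by limma 3.58.1 with a trended eBayes prior and group as the sole term. Alternatives were other pseudocounts and filters, quantile and TMM scaling, an untrended prior, a block for the replicate number, omission of 1 library at a time, and count models on the recovered reads (edgeR 4.0.16, DESeq2 1.42.0). The code was tested on simulated data.

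The members and lists were chosen with earlier results of these data known. Members named were those called, the most abundant and the largest rise and fall of each family (mean of at least 100), and all of the heat-inducible, endoplasmic reticulum and muscle lists. Any pathway gene called was named, or otherwise the most abundant of its list. A gene of the list of J-domain genes with other symbols is not reported here. Some members outside this rule (HSPA2, HSPA4, HSPA9, HSPA12A, HSPA12B, HSPA14, DNAJA2, DNAJA4, DNAJB6, DNAJC9, DNAJC16, DNAJC19 and DNAJC30) are given to complete their families and were chosen after their values were seen. The pathway genes PPP5C, HERPUD1, PDIA4 and CALR were also named after their values were seen. Gene names were matched to GENCODE on hg38, HSPB11 through its RefSeq synonym IFT25, and shared windows are stretches of 100 bases of a transcript found also in another gene's transcripts.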

Additional observations from a re-analysis of the deposited data

How the results depend on the processing

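Under 17 alternatives, 2 members were called with other pseudocounts, other filters, TMM or quantile scaling and edgeR. The number was 0 with eBayes without trend, where 0.237% of all genes passed, 3 with DESeq2 (DNAJB2 added) and 6 with the GC and length trend removed, an alternative chosen after the data were seen. Leaving out 1 library at a time gave 0 to 9. With the replicate number as a block, 1 member was called, HSPB11, and HSPB1 had an adjusted p of 0.0586. Deviations of same-numbered libraries correlated at -0.098, -0.027 and -0.027, and in the labels these libraries share only a number. These values cannot tell whether same-numbered libraries were handled together. The median log2 fold change of the members ranged from -0.023 to 0.023.

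Leaving out 1 library at a time changed the sign of 21 members, of which 0 were called. Of these, 18 lay within 0.1 of 0, and the other members were HSPA1A, HSPA12B (-0.16 to 0.44) and DNAJC28 (-0.062 to 0.79), which have few reads. Leaving out 1 library at a time gave -0.0021 to 0.062 for DNAJB1, -0.064 to 0.051 for DNAJC3, -0.043 to 0.076 for DNAJC5, -0.042 to 0.075 for HSP90AA1, -0.015 to 0.058 for HSP90AB1, -0.43 to 0.17 for HSPA1A, -0.095 to 0.010 for HSPD1 and -0.057 to 0.16 for HSPE1. DNAJC3 was 0.0076 with TMM scaling, 0.016 with quantile normalization, 0.0071 with edgeR and 0.0029 with DESeq2, and quantile normalization gave 0.0039 for HSPA5, 0.0038 for HSPA8 and 0.029 for HSPD1. With the GC and length trend removed, the values were -0.039 for DNAJB1, 0.045 for DNAJC3, -0.040 for DNAJC5, -0.0096 for HSP90AB1, -0.021 for HSPA1B and 0.012 for HSPD1. The cause was not tested. Depth limits the members with few reads, since an interval such as that of HSPA6 allowed a log2 change of up to 1.73.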
